A study of Homo sapiens with 4 samples.

Results

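The collagen and laminin genes of PANC-1 cells were followed through a stable knockdown of the histone variant H2A.Z. Members were all genes whose symbol in the deposited transcript table is COL or LAM followed by a collagen or laminin chain name and that have a transcript with abundances. Of 55 such symbols in the table, 32 genes with 50 transcripts met this, 23 of them collagens and 9 laminins, out of 15221 genes and 31077 transcripts in all. The rule used no measured change. Values and counts below are for 31 of these genes, 23 collagens and 8 laminins. The other 23 symbols are not analysed here, and COL1A1, which has abundances but no symbol in that table, was kept apart from the counts of members.

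PANC-1 is an established human pancreatic adenocarcinoma cell line, and its untransduced parental cells were the controls. PZT-2 is 1 clone of these cells that carries lentiviral short hairpin RNAs, driven by the U6 promoter of a pLL3.7-puro vector, that target H2A.Z.1 together with the H2A.Z.2 isoforms, and it was selected with puromycin. The labels describe it as a knockdown of 3 H2A.Z isoforms. Both lines were grown in the same serum-containing medium, and 2 libraries of polyadenylated RNA were made from each. Because there is 1 clone and the controls carry no vector, effects of the knockdown, of transduction and selection and of cloning cannot be told apart, and scrambled-hairpin cells are not analysed here. The study describes the libraries of a line as biological replicates, without saying how their cultures were kept apart. The labels do not say whether the 2 libraries came from separate cultures, and p values measure the spread between these libraries.

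Estimated counts, once 1 factor per library was undone, summed to between 12861252 and 15717333 per library. H2AFZ, which encodes H2A.Z.1, had normalized counts of 6389 and 6034 in PANC-1 replicates 1 and 2 and 2212 and 2259 in PZT-2 replicates 1 and 2 (counts scaled to a common library size), and the log2 fold change of PZT-2 against PANC-1 was -1.47 ± 0.057 (SE), adjusted p = 6.24e-05. The libraries of the lines did not overlap. H2AFV, which encodes H2A.Z.2, had normalized counts of 3343 and 3452 in PANC-1 and 2589.8 and 2718 in PZT-2, with -0.36 ± 0.057 (SE), adjusted p = 0.00573, for the log2 fold change. Without PZT-2 replicate 1 the change was -0.32 and not called (adjusted p = 0.0678).

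Collagens are triple helices of 3 alpha chains, each made of repeating triplets of residues that begin with glycine, the only residue small enough for the centre of the helix. Fibrillar collagens build the interstitial fibres that make pancreatic tumour stroma stiff, type IV collagens build the network of the basement membrane, and type VI collagen forms beaded filaments between them. Laminins are cross-shaped heterotrimers of 1 alpha, 1 beta and 1 gamma chain, and they are the other main polymer of the basement membrane, to which epithelial cells attach through integrins and dystroglycan. The chain that a cell lacks sets which trimers it can secrete.

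The feature that separates both families can be read in their coding sequence. In GENCODE 29 transcripts on GRCh38 that match the most abundant deposited transcript of each gene, all 23 collagens held at least 1 run of 10 or more triplets of codons that each start with a glycine codon (GGN), the longest run per gene being 23 to 339 triplets. None of the 8 laminins did, with longest runs of 2 to 4. The lines below show 3 triplets of the longest run, in coding orientation, for 5 called collagens of the basement membrane, fibrillar, type VI and transmembrane kinds, with the glycine codons in capitals.
COL4A1: GGTgaaagaGGCctcccgGGGttacaa
COL4A2: GGGccacggGGAgatgctGGTgtgcct
COL5A2: GGTcctgttGGCccaaggGGAccacag
COL6A1: GGAcctccgGGGctccggGGCgacccc
COL13A1: GGGctgccaGGGccagagGGGcctccc
These stretches are coding exon sequence. COL4A1 is read from chr13:110213989-110214015 on the minus strand (exon 3), COL4A2 from chr13:110473069-110473095 on the plus strand (exon 29) and COL5A2 from chr2:189086744-189086770 on the minus strand (exon 9). COL6A1 comes from chr21:45987619-45987645 on the plus strand (exon 8), and COL13A1 from chr10:69935356-69935382 on the plus strand (exon 30).

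All 32 members passed the filter on low counts, and 21 of the 31 described, or 67.7%, differed between the lines at an adjusted p under 0.05 over all genes, beside 28.4% of the 15101 genes tested. Of the 21, 9 were higher in PZT-2, beside 14.7% of all genes, and 12 were lower, beside 13.7% of all genes. The collagens gave 4 higher, 9 lower and 10 not called, and the laminins 5 higher, 3 lower and none uncalled. The median log2 fold change was -0.17 over the collagens and 0.31 over the laminins, beside 0.0011 over all genes tested. The PZT-2 libraries lay wholly above or wholly below the PANC-1 libraries for 28 of the 31 members, beside 66.3% of all genes. Some of these calls were lost when 1 library was left out, and the share of all genes called in such fits is not given here.

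**Figure D1:**
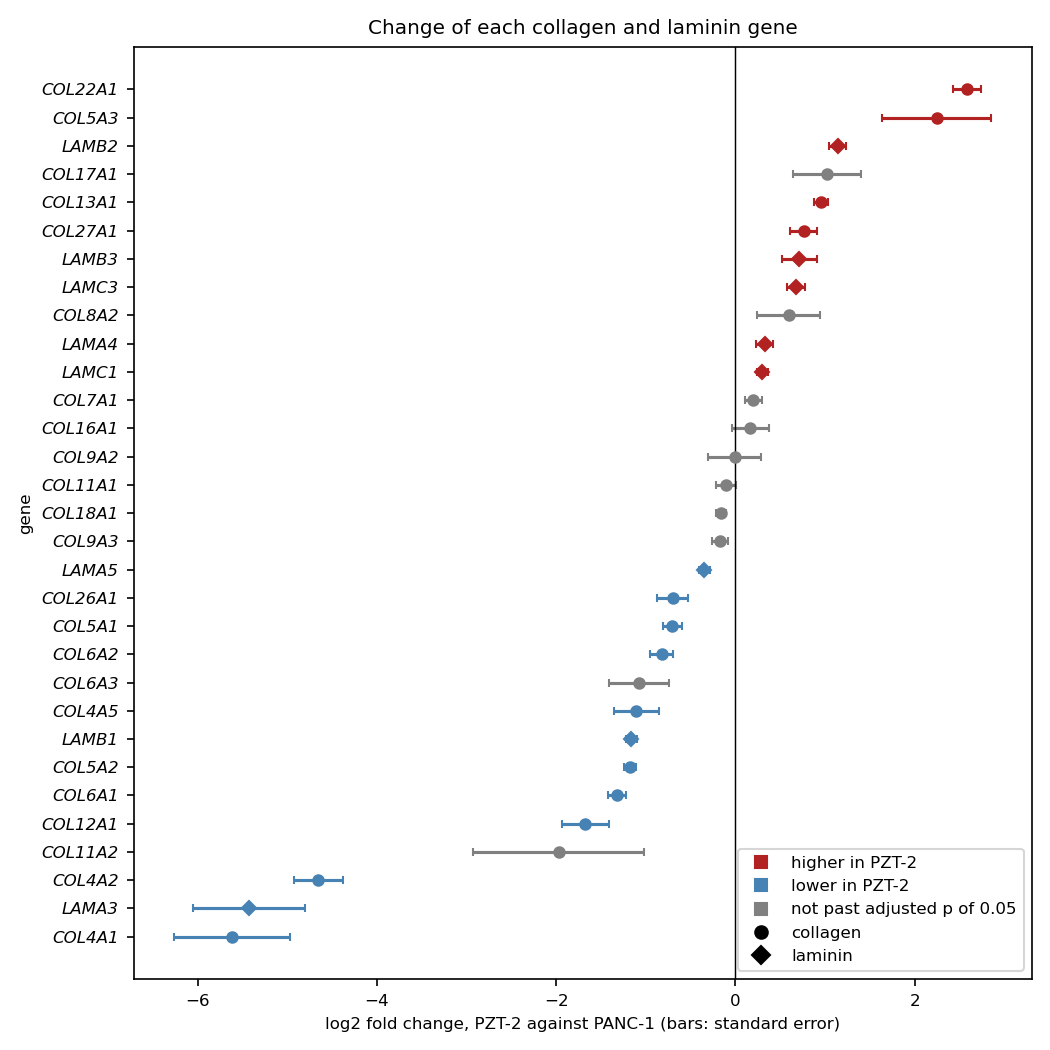
Log2 fold change of PZT-2 against PANC-1 (x axis) with its standard error for each of the 31 members (y axis), circles for collagens and diamonds for laminins, red where higher, blue where lower and grey where the adjusted p did not pass 0.05. COL4A1, LAMA3 and COL4A2 stand at -5.62, -5.43 and -4.66, below every other member, and COL22A1 at 2.58 above.

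The summed level of the laminins was close between the lines, while that of the collagens was lower in both PZT-2 libraries. Per length, all member collagens together stood at 908 ± 21.8 TPM (transcript abundance scaled for length and library size) in PANC-1 and 833 ± 41.6 TPM in PZT-2 (SD, n = 2), and the 8 laminins at 324 ± 3.20 and 320 ± 21.4 TPM. COL18A1 alone made up 82.9% ± 0.81 of the collagen level in PANC-1 and 83.9% ± 0.39 in PZT-2. Without it the collagen sum was 155 ± 3.65 and 134 ± 3.46 TPM. COL1A1, which is not a member, is in none of these sums and stood at 11.1 ± 0.80 TPM in PANC-1 and 3.43 ± 0.56 TPM in PZT-2. No test was made on these sums.

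**Figure D2:**
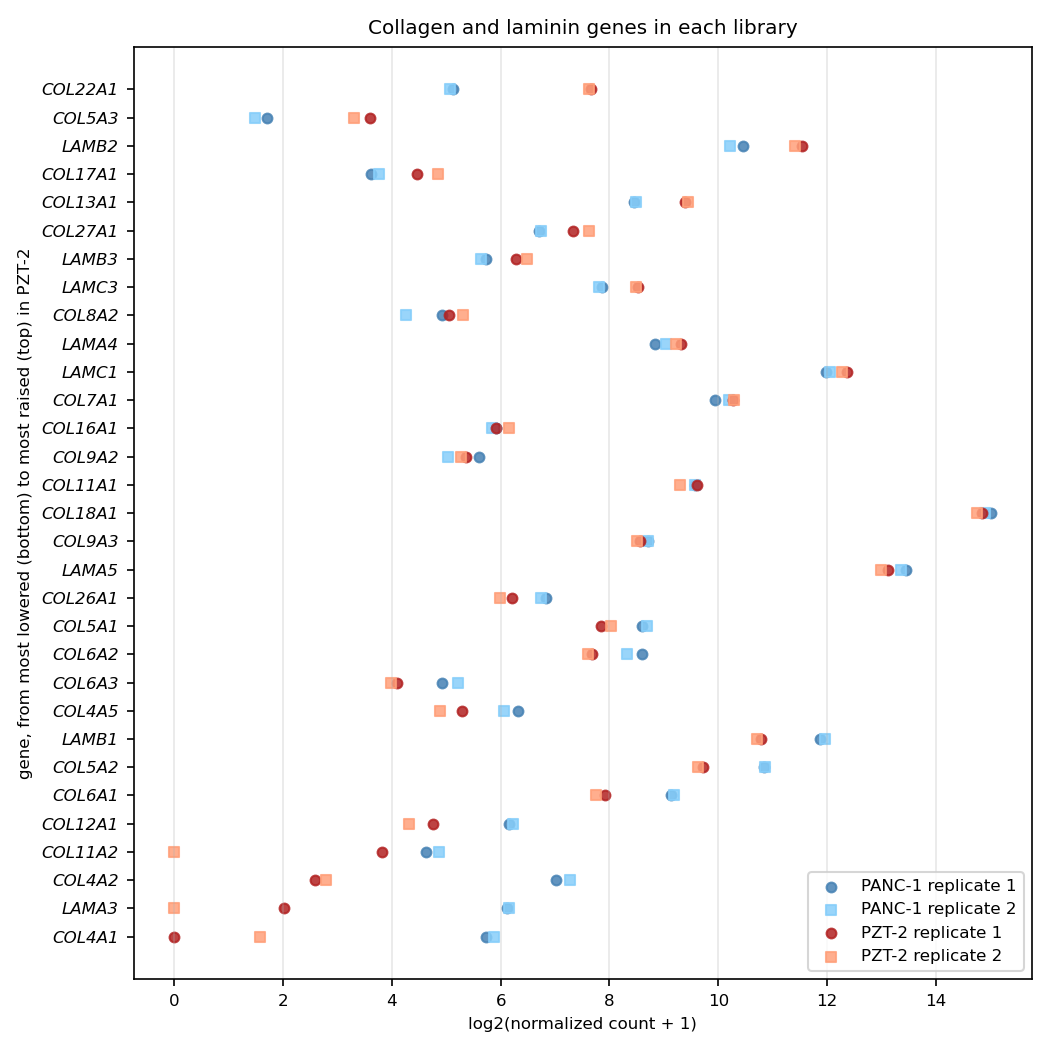
Normalized count of each member in each of the 4 libraries on a log2 scale after adding 1 (x axis), with genes ordered by fold change (y axis), blue for PANC-1 and red for PZT-2, circles for replicate 1 and squares for replicate 2. COL18A1 is the most abundant member and COL5A3 the least in PANC-1, and the points of the lines are separate for 28 of 31 genes.

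Among the collagens, 2 type IV genes of the basement membrane network fell the most. COL4A1 and COL4A2 encode the alpha 1 and alpha 2 chains that join in the common type IV trimer, and COL4A1 had normalized counts of 51.8 and 57.8 in PANC-1 replicates 1 and 2 and 0 and 1.98 in PZT-2 replicates 1 and 2. COL4A2 had normalized counts of 128 and 154 in PANC-1 replicates 1 and 2 and 5.03 and 5.93 in PZT-2 replicates 1 and 2. Both genes were near the bottom of detection in PZT-2 and the libraries of the lines did not overlap. As raw counts over both libraries of a line, COL4A1 had 110 in PANC-1 and 2 in PZT-2, a depth-adjusted ratio of 55.3 (95% interval 14.9 to 462, counting error only), and COL4A2 had 284 and 11, a ratio of 25.9 (14.3 to 52.6). The fitted log2 fold changes were -5.62 ± 0.65 (SE), adjusted p = 0.00186, for COL4A1 and -4.66 ± 0.27 (SE), adjusted p = 0.000233, for COL4A2. These standard errors are worked back from the test statistic and are narrower than the counting intervals. With so few counts the fitted value of COL4A1 depends on 1 library, being -8.78 without PZT-2 replicate 2, yet its adjusted p stayed under 0.05 in each of the 13 alternatives that gave a value. Per length, COL4A2 stood at 2.50 and 2.68 times the level of COL4A1 in the PANC-1 libraries.

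COL4A5, which encodes the alpha 5 chain of specialised basement membranes and is on chromosome X, also fell. It had normalized counts of 78.8 and 66.0 in PANC-1 and 38.2 and 28.7 in PZT-2, and its log2 fold change was -1.11 ± 0.25 (SE), adjusted p = 0.0198. Leaving out PZT-2 replicate 1 or 2 ended this call (adjusted p = 0.0522 and 0.115), as did DESeq2 (adjusted p = 0.0669). Genes of chromosome X had a median log2 fold change of -0.29, and COL4A5 lay below it. The 3 type IV genes together stood at 5.28 ± 0.37 TPM in PANC-1 and 0.81 ± 0.10 TPM in PZT-2 (SD, n = 2).

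COL4A1 and COL4A2 lie head to head on chromosome 13 and are transcribed in opposite directions from a shared promoter region. The RefSeq starts, at 110307157 for COL4A1 and 110307284 for COL4A2 (GRCh38.p14), are 127 bases apart, so their promoter windows of 250 bases before to 50 bases after the start share 226 bases. One CCAAT box (CCAAT or ATTGG, searched on both strands) lies between the RefSeq starts, and it is shown as each gene reads it, with the motif in capitals.
COL4A2: gggccgagctccCCAATttgttggcgctgc
COL4A1: cagcgccaacaaATTGGggagctcggcccg
The first is chr13:110307167-110307196 on the plus strand, with the motif at position -105 from the COL4A2 start, and the second is chr13:110307166-110307195 on the minus strand, with the motif at -26 from the COL4A1 start. GENCODE 29 starts the matching COL4A1 and COL4A2 transcripts further upstream, at positions -76 and -48 from those starts, and so closer to each other. By the GENCODE starts the motif falls inside the COL4A1 transcript and not between the starts. The motif is a common one, in 34.6% of 35116 RefSeq promoter windows and in 8 of the 26 members that have a window, so its presence is a description of the pair.

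None of the 6 nearest tested genes shared a fall of this size. On the COL4A1 side the nearest tested genes were IRS2, an insulin receptor adaptor, at a log2 fold change of 0.58 (adjusted p = 0.00488), ABHD13 at -0.072 and ARGLU1 at 0.22. On the COL4A2 side they were RAB20 at -0.20, NAXD at 0.12 and CARS2 at -0.33 (adjusted p = 0.0204). These neighbours were looked at after the values of the pair were known.

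**Figure D3:**
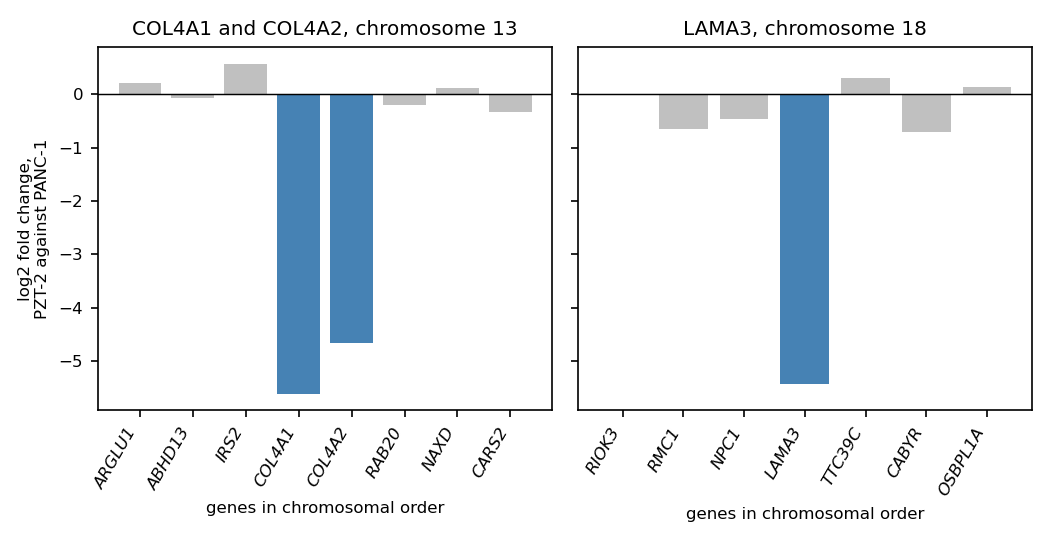
Log2 fold change of PZT-2 against PANC-1 (y axis) for COL4A1 and COL4A2 (left) and LAMA3 (right), in blue, and the 3 nearest tested genes on each side, in grey, in chromosomal order (x axis, not to scale). Neighbours lie between -0.70 and 0.58, while the collagen pair and LAMA3 lie below -4.

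Fibrillar collagens split. COL5A2 encodes the alpha 2 chain of type V collagen, which sits inside heterotypic fibrils and sets their diameter, and it had normalized counts of 1831 and 1846 in PANC-1 replicates 1 and 2 and 838 and 786 in PZT-2 replicates 1 and 2. COL5A1, its alpha 1 partner, had normalized counts of 385 and 412 in PANC-1 replicates 1 and 2 and 229 and 259 in PZT-2 replicates 1 and 2. Both fell without overlap between the lines, with log2 fold changes of -1.18 ± 0.064 (SE), adjusted p = 0.000205, for COL5A2 and -0.71 ± 0.10 (SE), adjusted p = 0.00445, for COL5A1. Per length COL5A2 stood at 5.66 ± 0.24 times COL5A1 in PANC-1 and 4.09 ± 0.54 times in PZT-2 (SD, n = 2). COL1A1, the main chain of interstitial type I collagen and kept apart from the members, had normalized counts of 494 and 531 in PANC-1 and 170.1 and 135 in PZT-2 and fell by 1.75 on the log2 scale (adjusted p = 0.000458).

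The remaining type V chain went the other way at a trace level. COL5A3 had normalized counts of 2.25 and 1.81 in PANC-1 and 11.1 and 8.90 in PZT-2, or 4 raw counts in PANC-1 and 20 in PZT-2, a ratio of 4.98 with a 95% counting interval of 1.67 to 20.0. Its adjusted p was 0.0360, and leaving out any of the 4 libraries ended the call (adjusted p from 0.0738 to 0.140), so it rests on all of them. COL27A1, a fibrillar collagen of cartilage, had normalized counts of 104 and 106 in PANC-1 and 159 and 196 in PZT-2 and a log2 fold change of 0.76 ± 0.15 (SE), adjusted p = 0.0132. Its libraries did not overlap, but without PZT-2 replicate 2 the change was 0.60 and no longer called (adjusted p = 0.0972).

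The type XI chains, which nucleate fibrils with type V, were not called. COL11A1 had normalized counts of 763 and 761 in PANC-1 and 783 and 631 in PZT-2 and overlapped between the lines, with a log2 fold change of -0.11. COL11A2 had 52 raw counts in PANC-1 and 13 in PZT-2, all 13 of them in replicate 1, and a log2 fold change of -1.97 ± 0.95 (SE), adjusted p = 0.175. Replicate 2 of PZT-2 was at 0, and without replicate 1 the fitted value was -7.70 (adjusted p = 0.0179). Fibrillar members together stood at 55.5 ± 1.66 TPM in PANC-1 and 35.6 ± 2.28 TPM in PZT-2 (SD, n = 2).

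Type VI collagen was lower in both of its well-measured chains. COL6A1 and COL6A2 are neighbours on chromosome 21 and supply 2 of the 3 chains of the beaded filament. COL6A1 had normalized counts of 563 and 580.2 in PANC-1 replicates 1 and 2 and 242 and 216 in PZT-2 replicates 1 and 2, a log2 fold change of -1.32 ± 0.10 (SE), adjusted p = 0.000446. COL6A2 had normalized counts of 387 and 318 in PANC-1 replicates 1 and 2 and 203 and 194 in PZT-2 replicates 1 and 2, a log2 fold change of -0.82 ± 0.13 (SE), adjusted p = 0.00519. Neither gene overlapped between the lines, and both calls held in all 14 alternatives. Beyond COL6A2, the nearest tested gene was LSS, the lanosterol synthase of cholesterol synthesis, whose log2 fold change was -1.33 (adjusted p = 0.000134). Beyond COL6A1 it was the folate transporter SLC19A1 at 0.28 (adjusted p = 0.037). Further out on the LSS side, MCM3AP and YBEY were at -0.069 and 0.12 (adjusted p = 0.429 and 0.599). Further out on the SLC19A1 side, COL18A1 and POFUT2 were at -0.16 and 0.58 (adjusted p = 0.0734 and 0.00182). These neighbours too were looked at after the values of the pair were known. The longest chain, COL6A3, had 66 raw counts in PANC-1 and 31 in PZT-2, a ratio of 2.14 (95% counting interval 1.38 to 3.39), and its log2 fold change of -1.08 ± 0.33 (SE), adjusted p = 0.0542, missed the threshold. It passed with a minimum of 10 counts in all 4 libraries (adjusted p = 0.0181). The 3 genes together stood at 31.4 ± 0.76 TPM in PANC-1 and 15.4 ± 0.98 TPM in PZT-2 (SD, n = 2).

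Among the collagens that bind to fibril surfaces, 1 fell and 1 rose. COL12A1, a fibril-associated collagen with interrupted helices that is typical of dense connective tissue, had normalized counts of 69.8 and 74.1 in PANC-1 and 26.2 and 18.8 in PZT-2 and a log2 fold change of -1.68 ± 0.26 (SE), adjusted p = 0.00536. COL22A1, known from tissue junctions such as that of muscle and tendon, had normalized counts of 33.8 and 32.5 in PANC-1 and 201 and 196 in PZT-2, and 2.58 ± 0.16 (SE), adjusted p = 0.000251, the largest rise of any member. Both were apart between the lines in every library and called in all 14 alternatives. COL9A3 had normalized counts of 415 and 417 in PANC-1 and 377 and 361 in PZT-2 and was not called (log2 fold change -0.17), and COL9A2 and COL16A1, at -0.0081 and 0.17, overlapped between the lines.

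Transmembrane and other collagens showed no common direction. COL13A1, a membrane-bound collagen of cell adhesion sites, had normalized counts of 350.0 and 358 in PANC-1 replicates 1 and 2 and 669 and 698 in PZT-2 replicates 1 and 2, a log2 fold change of 0.95 ± 0.079 (SE), adjusted p = 0.000659. Its libraries were well apart, and its level was 15.7 ± 0.42 TPM in PANC-1 and 31.4 ± 0.58 TPM in PZT-2. The call ended with its most abundant transcript alone (adjusted p = 0.0914). COL17A1, the hemidesmosomal collagen of epithelia, had 24 raw counts in PANC-1 and 49 in PZT-2 and a log2 fold change of 1.02 ± 0.38 (SE), adjusted p = 0.0943, which passed with a minimum of 10 counts in all 4 libraries (adjusted p = 0.0347). COL26A1 had normalized counts of 114 and 106 in PANC-1 and 72.5 and 62.3 in PZT-2 and a log2 fold change of -0.70 ± 0.17 (SE), adjusted p = 0.0254, a call that ended without PANC-1 replicate 1 and without either PZT-2 library (adjusted p = 0.0571, 0.0734 and 0.147) and under DESeq2 (0.141).

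COL18A1, the multiplexin that carries endostatin at its end, was by far the most abundant collagen. It had normalized counts of 33176 and 30732 in PANC-1 replicates 1 and 2 and 29571 and 27539 in PZT-2 replicates 1 and 2, and although the lines did not overlap its log2 fold change was -0.16 ± 0.056 (SE), adjusted p = 0.0734. The call turned on the setting, with an adjusted p of 0.00921 without PANC-1 replicate 2 (log2 fold change -0.22) and of 0.0316 under DESeq2. COL7A1, which forms the anchoring fibrils below epithelia, had normalized counts of 981 and 1177 in PANC-1 and 1227 and 1258 in PZT-2 and a log2 fold change of 0.20 ± 0.094 (SE), adjusted p = 0.165, called only when PANC-1 replicate 2 was left out (0.33, adjusted p = 0.0087). The hexagonal network gene COL8A2 had 46 and 71 raw counts and a log2 fold change of 0.59 (adjusted p = 0.264).

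All 8 laminin chains were called, and the largest of these changes was that of LAMA3. The calls of LAMA4 and LAMB3 did not hold under DESeq2 (adjusted p = 0.125 and 0.218). LAMA3 encodes the alpha 3 chain of laminin-332, the laminin that anchors epithelial hemidesmosomes. Of its 5 listed transcripts only 2 have abundances, a long coding form and a non-coding form. Its other forms have no value here, so their change is not known. The change of the alpha 3 chain of laminin-332 as a whole is therefore not known either. LAMA3 had normalized counts of 68.6 and 70.5 in PANC-1 replicates 1 and 2 and 3.02 and 0 in PZT-2 replicates 1 and 2. Over both libraries of a line this was 139 raw counts against 3, a ratio of 46.6 (95% counting interval 15.6 to 228), and the fitted log2 fold change was -5.43 ± 0.62 (SE), adjusted p = 0.00187. Here too the standard error is narrower than the counting interval. All 3 PZT-2 counts came from replicate 1, without which the fitted value was -9.13, and the call held in all 13 alternatives that gave a value. The beta 3 chain of laminin-332 moved the other way from the LAMA3 forms with values. LAMB3 had normalized counts of 51.8 and 48.8 in PANC-1 and 76.5 and 88.0 in PZT-2 and a log2 fold change of 0.71 ± 0.20 (SE), adjusted p = 0.0388, a call that ended with any of the 4 libraries left out (adjusted p from 0.0574 to 0.204).

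The fall of LAMA3 was steeper than that of the genes around it on chromosome 18. NPC1 and RMC1 on one side were at -0.45 and -0.64 (adjusted p = 0.00596 and 0.0027), and TTC39C and CABYR on the other at 0.31 and -0.70 (adjusted p = 0.13 and 0.0074). RIOK3 and OSBPL1A, one gene further out, were at 0.017 and 0.14. They too were looked at after the value of LAMA3 was known. The deposited LAMA3 transcripts with abundances were the long coding form and a non-coding form, and the long form starts far upstream of the RefSeq promoter window of the gene (position -183577 from the start that window is built on), so no promoter is shown for it.

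Alpha 5 remained the main alpha chain. LAMA5, the alpha chain of most adult epithelial and vascular basement membranes, had normalized counts of 11200.0 and 10480.0 in PANC-1 replicates 1 and 2 and 8909.7 and 8112 in PZT-2 replicates 1 and 2, with a log2 fold change of -0.35 ± 0.063 (SE), adjusted p = 0.00900. Its libraries did not overlap, though without PZT-2 replicate 2 the change was -0.28 and not called (adjusted p = 0.0846). LAMA4, a chain of endothelial and mesenchymal laminins, had normalized counts of 457 and 526 in PANC-1 and 637 and 596 in PZT-2 and a log2 fold change of 0.32 ± 0.10 (SE), adjusted p = 0.0471, a call that ended without PANC-1 replicate 1 and without either PZT-2 library (adjusted p = 0.13, 0.213 and 0.119). Of the alpha chain level, LAMA5 was 87.2% ± 0.45 in PANC-1 and 82.1% ± 1.53 in PZT-2, and LAMA4 11.5% ± 0.34 and 17.9% ± 1.51 (SD, n = 2).

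The beta chains exchanged places. LAMB1, a beta chain of many tissues, had normalized counts of 3736 and 3975 in PANC-1 replicates 1 and 2 and 1775 and 1670.2 in PZT-2 replicates 1 and 2, and LAMB2, its counterpart in synaptic, renal and vascular basement membranes, had normalized counts of 1404 and 1186 in PANC-1 replicates 1 and 2 and 2988 and 2716 in PZT-2 replicates 1 and 2. No library of one line reached the range of the other for either gene. LAMB1 had a log2 fold change of -1.16 ± 0.064 (SE), adjusted p = 0.000205, and LAMB2 one of 1.14 ± 0.10 (SE), adjusted p = 0.000682, and both calls held in all 14 alternatives. Per length, LAMB1 was 80.5 and 88.2 TPM in PANC-1 and 40.4 and 37.8 TPM in PZT-2, and LAMB2 was 30.5 and 26.5 TPM in PANC-1 and 68.6 and 62.0 TPM in PZT-2. The ratio of LAMB2 to LAMB1 was therefore 0.340 ± 0.055 in PANC-1 and 1.67 ± 0.041 in PZT-2 (SD, n = 2). LAMB1 made up 73.7% ± 3.06 of the beta chain level in PANC-1 and 36.6% ± 0.40 in PZT-2, while the summed beta level was 114 ± 2.58 and 107 ± 6.27 TPM.

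LAMB2 lies on chromosome 3, where the median log2 fold change of 833 tested genes was 0.43 and 50.9% of them were called. Its change of 1.14 was larger than that median, and the part of the chromosome's shift in it was not tested. Its 6 nearest tested genes, looked at after its value was known, were all above 0, between 0.20 and 0.78, and 3 of them were called: USP19 at 0.58, QRICH1 at 0.39 and KLHDC8B at 0.78. COL7A1 is on the same chromosome and, at 0.20, lay below the median. Apart from chromosome X, the medians of the other chromosomes with members were between -0.093 and 0.12. The neighbours of LAMB1 on chromosome 7 were also looked at after its value was known. DLD and CBLL1 on one side were at -0.46 and -0.36 (adjusted p = 0.0131 and 0.0209). SLC26A4, further out on that side, was at 0.14, and PNPLA8, THAP5 and DNAJB9 on the other at -0.017, -0.23 and 0.17, none of them called.

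LAMC1 and LAMC3 rose. LAMC1, the gamma chain of most laminins, had normalized counts of 4039.8 and 4247 in PANC-1 and 5264 and 4937 in PZT-2 and a log2 fold change of 0.30 ± 0.059 (SE), adjusted p = 0.0117. Without PZT-2 replicate 1 or 2 this call was lost (0.25 and 0.35, adjusted p = 0.109 and 0.0572). LAMC3, a less common gamma chain of nerve and retina, had normalized counts of 233 and 222 in PANC-1 and 369 and 357 in PZT-2 and a log2 fold change of 0.68 ± 0.10 (SE), adjusted p = 0.00377. Its libraries did not overlap between the lines, and its call held in all 14 alternatives. Per length LAMC1 was at 66.9 ± 3.71 TPM in PANC-1 and 85.5 ± 4.26 TPM in PZT-2, and LAMC3 at 4.77 ± 0.061 and 7.91 ± 0.23 TPM (SD, n = 2).

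**Figure D4:**
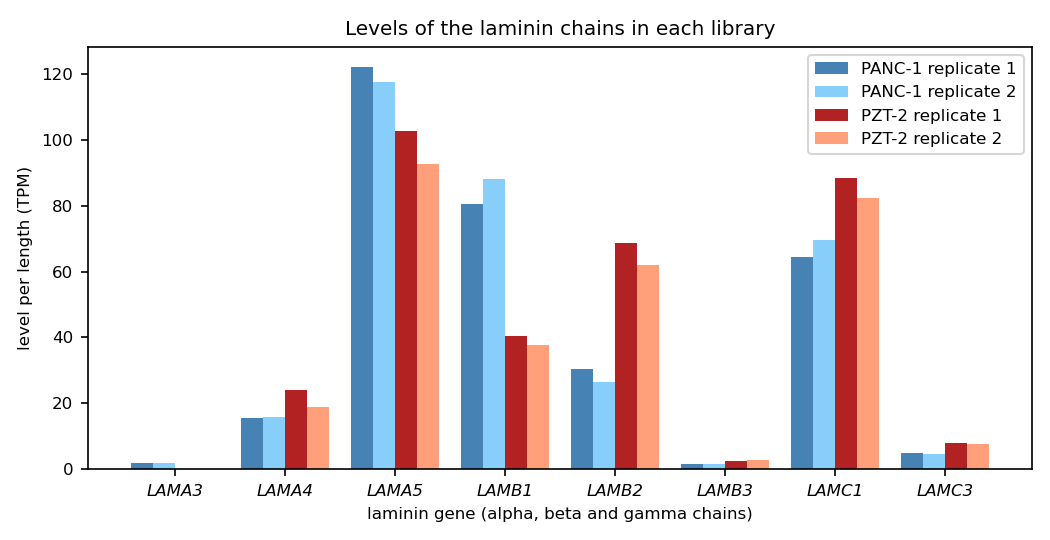
Level per length in TPM (y axis) of the 8 laminin chains (x axis) in each of the 4 libraries, blue for PANC-1 and red for PZT-2. LAMB1 falls from 80.5 and 88.2 to 40.4 and 37.8 TPM while LAMB2 rises from 30.5 and 26.5 to 68.6 and 62.0 TPM, and LAMC1 and LAMC3 are higher in both PZT-2 libraries.

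Single transcripts carried far fewer calls than genes. Of 47 member transcripts tested, 1 was called by edgeR, the only COL5A2 transcript, beside 0.148% of the 30403 transcripts tested (0.0691% higher and 0.0789% lower). In the same test 21 of the 47 had an unadjusted p under 0.05, beside 5614 of the 30403. DESeq2 called 20 of the 47, and its share over all transcripts is not given here. The difference between the tools is therefore wide, and transcript values are given as description. Reads shared by isoforms are split by an estimate, and 23 members had a single transcript with abundances.

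Among the 8 members with several transcripts, isoforms of a gene did not always move together. The short COL18A1 transcript NM_130445 held 97.6% and 97.7% of all COL18A1 counts in PANC-1 and 98.7% and 98.8% in PZT-2. The longer NM_030582 had 684 and 586 normalized counts in PANC-1 and 293 and 297 in PZT-2, and edgeR gave a log2 fold change of -1.11 ± 0.11 (SE) with adjusted p = 0.0706. For LAMA4, NM_001105207 had 65.5 and 77.0 normalized counts in PANC-1 and 166 and 190.2 in PZT-2, while the most abundant form, NM_001105206, had 282 and 342 in PANC-1 and 239 and 282 in PZT-2. The rise of LAMA4 as a gene was thus not seen in its main transcript, whose log2 fold change was -0.27. LAMB3 counts moved between NM_000228 and NM_001017402 from library to library of the same line, so only their sum is used.

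Other genes of matrix assembly gave 25 higher and 10 lower among 74 tested, with a median log2 fold change of 0.22. Among all genes 14.7% were called higher and 13.7% lower, so the count of lower genes lay near the share of all genes. Fewer of these genes were called in each direction without PZT-2 replicate 1 or 2. The share of all genes called in such fits is not given here. The enzymes and chaperones that fold and modify collagen in the endoplasmic reticulum numbered 24, of which 12 were higher, 2 were lower and 10 were not called, with a median of 0.25. P4HA2, a catalytic subunit of prolyl 4-hydroxylase, had normalized counts of 429 and 476 in PANC-1 and 911 and 901 in PZT-2 and a log2 fold change of 1.00 ± 0.080 (SE), adjusted p = 0.000605. CRTAP, a part of the prolyl 3-hydroxylation complex, was at 0.92. It lies on chromosome 3, as does PLOD2, another of the higher genes, at 0.67. The median log2 fold change of that chromosome was 0.43, and the part of this shift in their values was not tested. The collagen chaperone SERPINH1 had normalized counts of 2215 and 2182 in PANC-1 and 1872 and 1864 in PZT-2 and was among the lower genes at -0.23 (adjusted p = 0.0223), a call that ended without PZT-2 replicate 1 or 2 (adjusted p = 0.139 and 0.158).

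Of 14 genes for propeptide cleavage and crosslinking 3 were higher and 2 lower, so 35.7% were called, near the 28.4% of all genes. SPARC, a collagen-binding glycoprotein, had normalized counts of 232 and 234 in PANC-1 and 63.4 and 80.1 in PZT-2 and a log2 fold change of -1.70 ± 0.15 (SE), adjusted p = 0.000836, and the lysyl oxidase LOXL4 was at -1.09 (adjusted p = 0.0555 without PZT-2 replicate 1). PCOLCE2, an enhancer of procollagen cleavage, and the type IV collagen crosslinker PXDN were at 1.15 and 0.80. PCOLCE2 is also on chromosome 3, and the part of the chromosome's shift in its value was not tested. Of 6 basement membrane partners 2 were higher and 3 lower, with NTN4, a laminin-related inhibitor of laminin assembly, at -1.15 and TINAGL1 at -0.88, against AGRN, which links laminin to dystroglycan, at 0.35 and FBLN1 at 0.34. Without PZT-2 replicate 1 the calls of AGRN, FBLN1 and TINAGL1 ended (adjusted p = 0.054, 0.095 and 0.0549), and without PZT-2 replicate 2 those of FBLN1 and TINAGL1 (0.0719 and 0.0603).

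Of 12 other matrix glycoproteins and proteoglycans none was higher and 2 were lower, so 16.7% were called, below the 28.4% of all genes. The larger of them, TNC, the adhesion-modulating glycoprotein tenascin C, had normalized counts of 249 and 230.4 in PANC-1 and 26.2 and 22.7 in PZT-2 and a log2 fold change of -3.28 ± 0.17 (SE), adjusted p = 0.000181. Receptors of collagens and laminins gave 8 higher and 1 lower of 18, beside 14.7% higher and 13.7% lower among all genes. ITGB4, the beta 4 integrin that binds laminin-332 in hemidesmosomes, was the lower one, with normalized counts of 2617 and 2521 in PANC-1 and 602 and 561 in PZT-2 and a log2 fold change of -2.14 ± 0.068 (SE), adjusted p = 5.97e-05. The collagen receptors ITGA2 and DDR1 were higher, at 0.79 and 0.62.

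**Figure D5:**
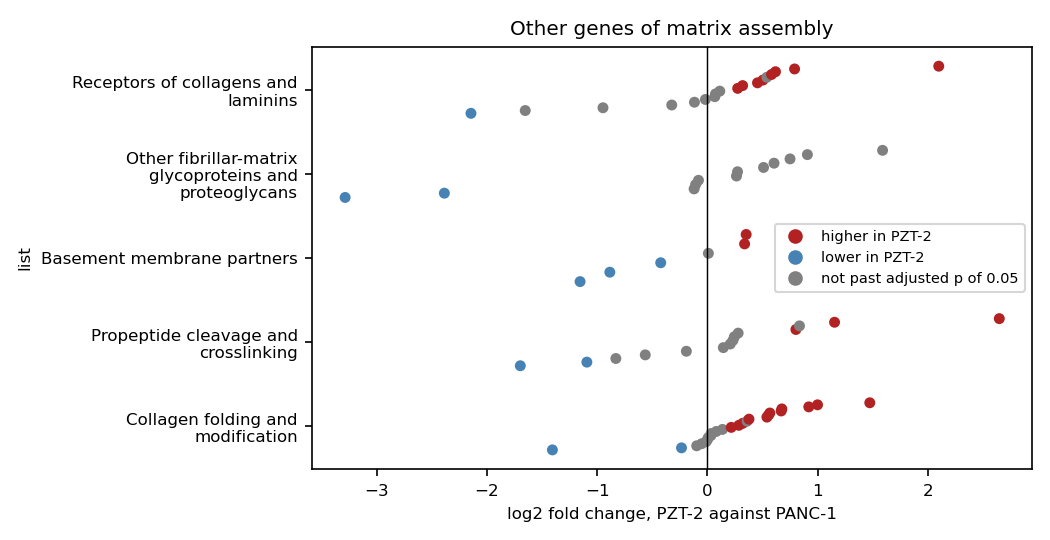
Log2 fold change of PZT-2 against PANC-1 (x axis) for the 74 other genes of matrix assembly by list (y axis), 1 point per gene, spread vertically for visibility, red where higher, blue where lower and grey where the adjusted p did not pass 0.05. Red points number 12 of 24 for collagen folding and modification and 0 of 12 for other matrix glycoproteins.

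The identity of the cells was checked with marker genes. All 6 epithelial and ductal markers were listed in both lines, and their summed level was 7248 and 7403 TPM in PANC-1 and 4058 and 3969 TPM in PZT-2, with KRT8, KRT18, KRT19 and CDH1 lower and called. Of these CDH1 was at 0 and 0.53 TPM in PZT-2, and the other 5 were above 0 in every library. Of 8 fibroblast and stellate cell markers, PDGFRB, THY1 and ACTA2 were listed, with sums of 7.92 and 7.60 TPM in PANC-1 and 18.7 and 16.7 TPM in PZT-2, most of it THY1, whose log2 fold change was 1.44 (adjusted p = 0.00116). PDGFRA, DCN, LUM, FAP and POSTN have no value here. Of the endothelial and leukocyte markers 1 of 3 each was listed, PECAM1 at 0.24 TPM or less and CD14 at 0.28 and 0 TPM in PANC-1 and 1.45 and 2.75 TPM in PZT-2, where it was called higher by 3.86 on the log2 scale (adjusted p = 0.0234). The part of these differences in the collagen and laminin changes was not tested, and in RNA from whole cultures fewer cells of a kind and less RNA per cell cannot be told apart.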

How the data were processed

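RNA-seq values of 4 libraries were used, 2 of PANC-1 and 2 of PZT-2, grouped by their titles. Per the submitters' notes and the study's methods, the authors used Trim Galore 0.4.1 for trimming, kallisto 0.43.0 for transcript abundances (RefSeq index) and sleuth 0.29.0 for their own comparison. The release of the index is not given in the sources used here. The table the authors deposited holds estimated counts, which carry 1 factor per library (1.16, 0.935, 1.03 and 1.01), and a TPM column, a score that was not used as such. After the factor was undone, between 49.0% and 49.7% of values from 0.5 to 30 were whole to within 0.01, against 0.63% to 2.71% as deposited. No column of per-sample values was left unused for want of a sample (0 columns). The authors' own columns of effects, p values and q values were not used. The plan took the estimated counts with the factor undone if one showed, as it did.

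Counts were rounded and summed per gene, 27049 transcripts being named by the deposited table and 3925 through RefSeq (GRCh38.p14), with 103 unnamed (0.047% of counts). TPM were rebuilt from the recovered counts and the deposited effective lengths. A gene entered the test with a minimum of 5 counts in 2 or more libraries. The test was the quasi-likelihood test of edgeR 4.0.16 (legacy estimate, TMM factors, in R 4.3.3), and genes were called where p, adjusted by Benjamini-Hochberg across every gene tested (for transcripts, every transcript), was under 0.05. Every adjusted p is from this test unless another is named. Standard errors (SE) of fold changes were worked back, as the absolute log2 fold change over the square root of the test's F statistic. With few counts, as for COL4A1, COL4A2 and LAMA3, they are narrower than the counting intervals. The steps were tested on simulated data. No exact permutation test was made, since 2 against 2 libraries allow no p smaller than 0.333. Count ratios have exact 95% intervals, which cover counting error only. RefSeq promoter windows and GENCODE 29 transcripts gave the sequences.

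The members, the gene lists and the tests were chosen with earlier results of these data known. Results for 1 member are not reported here, and it was left out of every count and sum over members. The other members are all named, and the value of every library is given for those called and for uncalled ones whose normalized counts average at least 100. Of each other list, the 2 most changed called genes per direction are named if their mean is at least 100. Alternatives were RLE size factors, DESeq2 1.42.0, the version 4 estimate of edgeR, no filter on low counts, a minimum of 10 counts in all 4 libraries, limma-trend (limma 3.58.1) on log2(TPM + 1) and log2(TPM + 0.1), the factor left in, a replicate block, each library left out and the most abundant transcript of each gene alone. Adding COL1A1 and leaving out members on chromosomes 3 and X were chosen after seeing the data.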

Additional observations from a re-analysis of the deposited data

How the results depend on the processing

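Each of the 31 members was refitted under 14 alternatives where it gave a value. Of the 21 called members, 12 kept their call in every one and 9 lost it in at least 1, while 5 uncalled members were called in at least 1. The count of higher members, 9 as reported, was 4 with the most abundant transcript of each gene alone and 4 to 8 with 1 library left out, and the count of lower members, 12 as reported, was 9 to 13 with 1 library left out. Other genes of matrix assembly gave 14 to 29 higher and 5 to 11 lower with 1 library left out. Leaving out a PZT-2 library leaves that line with 1 library, which is then assumed to vary like the other line. The shares of all genes called under these alternatives are not given here. Losses among the members and a general loss of calls therefore cannot be told apart. Adding COL1A1 gave 9 higher and 13 lower, and leaving out members on chromosomes 3 and X gave 8 and 11.

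Directions turned only for members near 0 or read through 1 transcript. With 1 library left out, COL11A1 ranged from -0.27 to 0.040 (the last without PZT-2 replicate 2) and COL9A2 from -0.29 to 0.29. COL9A2 was at 0.0086 under edgeR's version 4 estimate, at 0.036 in limma-trend with 1 added to TPM, at 0.059 with 0.1 added and at 0.0043 with the replicate block. LAMA4 was at -0.26 with its most abundant transcript alone.

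Member transcripts, 0 higher and 1 lower as reported, were 7 and 13 with DESeq2, 2 and 4 with the version 4 estimate, 2 and 4 with a minimum of 10 counts in all 4 libraries and 1 and 2 with limma-trend on log2(TPM + 1). The lower count was 0 with limma-trend on log2(TPM + 0.1), with the factor left in, with the replicate block and with any library left out (0 to 0). The shares of all transcripts called under each of these settings are not given here, and the cause was not tested.

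The labels tie no replicate number to a culture or day, and deviations of same-numbered libraries correlated at -0.021, so the replicate block is only an alternative. Under it 6 members were higher and 13 lower, and COL5A3, LAMA4 and LAMB3 were not called (adjusted p = 0.068, 0.0742 and 0.0715) while COL18A1 was (0.0449). The share of all genes called under the block is not given here. Depth limits COL4A1, LAMA3 and COL5A3, which rest on 2, 3 and 4 counts in the lower line.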

Other observations

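Further matrix genes outside the naming rule, because their mean normalized count was below 100, are given as values chosen after they were seen. LOX, the lysyl oxidase that starts the crosslinking of fibrillar collagen, had normalized counts of 9.0 and 3.61 in PANC-1 and of 33.2 and 44.5 in PZT-2, and its log2 fold change was 2.65 ± 0.48 (SE), adjusted p = 0.00924. P4HA3, another catalytic subunit of prolyl 4-hydroxylase, had 50.6 and 45.2 against 135.9 and 129.5, at 1.47 ± 0.17 (adjusted p = 0.00184). ITGA1, a collagen-binding integrin chain, had 9.0 and 8.13 against 43.3 and 30.7, at 2.10 ± 0.39 (adjusted p = 0.0093). BGN, the small proteoglycan biglycan, had 37.1 and 21.7 against 4.03 and 6.92, at -2.39 ± 0.51 (adjusted p = 0.016). CREB3L1, a transcription factor of collagen secretion, had 64.1 and 45.2 against 20.1 and 20.8, at -1.41 ± 0.30 (adjusted p = 0.0167). No library of one line overlapped with the other for any of the 5, and with 1 library left out the adjusted p reached 0.0666 for LOX, 0.0640 for ITGA1, 0.0906 for BGN and 0.0875 for CREB3L1, while it stayed at or under 0.0218 for P4HA3.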
